A study of Caenorhabditis elegans with 12 samples.

Results

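Whole Caenorhabditis elegans hermaphrodites of the strain CF1038, on food that the labels give as bcat-1 RNAi, were compared with hermaphrodites of the strain TU3311 on the empty RNAi vector L4440. The comparison uses 6 of the 12 RNA sequencing libraries of the series, 3 per group, chosen by the strain and feeding that the labels give. CF1038 lacks a stretch of daf-16, which codes for the worm's FOXO transcription factor, through the allele daf-16(mu86). TU3311 is described in the labels as a sid-1 transgenic strain for neuronal RNAi, with no promoter or further allele given. A further group, CF1038 on L4440, serves to say which differences between the strains were present without bcat-1 feeding, and the remaining group is TU3311 labelled daf-7 RNAi. All animals were 5 days old. The series number in the library titles also differs between all CF1038 and all TU3311 libraries, and its meaning is not given. The daf-16 allele, the transgene, the feeding and this title series differ together between the groups compared. Their shares in a difference therefore cannot be told apart. Separate cultures are not stated for the libraries of a group. The p-values therefore cover the spread among these libraries alone, and that spread may be technical.

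DAF-16 sits at the end of the insulin pathway of the worm. Insulin-like peptides act on the receptor DAF-2, which through AGE-1, PDK-1 and AKT keeps DAF-16 out of the nucleus, and when signalling is low DAF-16 enters the nucleus and raises genes of stress resistance, metal binding, detoxification and immunity while others go down. SID-1 is the channel through which double-stranded RNA enters cells, and neurons of the worm take up little of it without added SID-1. BCAT-1 is the branched-chain amino acid aminotransferase, the first enzyme of leucine, isoleucine and valine breakdown.

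The libraries held 32831610 to 45343624 counts in the bcat-1-labelled group and 38300684 to 41686335 in TU3311 on vector. Library 7, which is TU3311 vector replicate 1, stood apart from the other libraries of its group. The median sperm gene lay 0.87 (log2) above the group's mean level in library 7 and 1.28 and 0.41 below it in replicates 2 and 3, and the median oocyte and eggshell gene lay 0.93 below in library 7 and 0.31 and 0.30 above in the others. The daf-16(mu86) vector libraries had at least 10 counts for 13542 to 14693 genes, the bcat-1-labelled libraries for 15468 to 16028 and the TU3311 vector libraries for 15755 to 16726. Differences in the number of cells of a type and in RNA per cell cannot be told apart in whole animals. Where leaving out library 7 ended a named call of the bcat-1-labelled comparison, this stands beside the result. The same holds where it moved the log2 difference given for a gene called there by over 1.5 times. Differences that were not called and list medians are given without library 7 only in part.

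Genes that the labels name serve as a check of the groups. The level of bcat-1 was 210, 166 and 222 CPM (counts scaled to the library total, with TMM factors) in the bcat-1-labelled libraries, 131, 151 and 137 in daf-16(mu86) on vector and 242, 169 and 158 in TU3311 on vector. The bcat-1-labelled libraries were therefore not low in bcat-1 transcript, and all 3 lay above the vector libraries of the same strain. The difference from these did not pass the test (log2 0.51, adjusted p = 0.212). With neighbouring library numbers within daf-16(mu86) paired as replicate blocks, a pairing that no label states, it was called (edgeR adjusted p = 0.00785). Against TU3311 on vector the log2 difference was 0.07 ± 0.23 (SE, n = 3 against 3, edgeR adjusted p = 0.897), and 0.28 without library 7. The transcript level thus gave no check of the bcat-1 label, and the 3 libraries are called bcat-1-labelled throughout, with every direction below drawn on the labels.

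For daf-16 itself the bcat-1-labelled libraries read 93.9, 83 and 93.1 CPM and the TU3311 vector libraries 185, 210 and 191, with no overlap. The level was 2.17-fold lower (log2 -1.12 ± 0.19, adjusted p = 0.0102, and 0.0121 without library 7), and daf-16(mu86) on vector, at 85.7, 87.5 and 77.4 CPM, lay at the same distance from TU3311 (log2 -1.22, adjusted p = 0.00581). Counts are summed over the gene and do not show which exons were read. The gene sid-1 read 106, 86.7 and 107 CPM against 167, 248 and 195 in TU3311, a strain with added sid-1. It was 2.03-fold lower in the bcat-1-labelled libraries (log2 -1.02 ± 0.22, adjusted p = 0.0294, and 0.0231 without library 7), while the strain difference on vector missed the threshold (log2 -0.75, adjusted p = 0.052). Levels of daf-7, the dauer TGF-beta ligand of sensory neurons, were 3.31, 3.74 and 3.39 CPM against 12.1, 8.38 and 6.21. These groups did not overlap, but the difference was not called (log2 -1.35 ± 0.43, adjusted p = 0.136). The TU3311 libraries labelled daf-7 RNAi, used below to choose strain differences, read 115, 31.4 and 137 CPM for daf-7. Every such value lay above TU3311 on vector, so the transcript gave no check of that label either.

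Over the whole table, 339 of 16618 genes tested differed between the bcat-1-labelled libraries and TU3311 on vector at an adjusted p under 0.05 (2.04%). Of these, 57 were higher (0.343%) and 282 lower (1.70%), and all 282 lower and 55 of the higher genes differed by at least 2-fold. Leaving out library 7, 22 of the higher (0.132%) and 119 of the lower genes (0.716%) were still called, and none of the 339 changed sign under any of 21 other settings. The genes called under all 21 settings were 3 higher ones, cpr-5, ZK673.1 and haf-6, and 33 lower ones. The median log2 difference of all genes was 0.05. The same fit called 1103 genes between daf-16(mu86) on vector and TU3311 on vector (6.64%), 22 higher (0.132%) and 1081 lower (6.50%), with a median of -0.38 over all genes. Without library 7 the strain comparison called 11 higher (0.0655%) and 241 lower genes (1.43%), with a median of -0.21. Within daf-16(mu86) the bcat-1-labelled and the vector libraries differed in 718 genes (4.32%), of which 694 were higher (4.18%) and 24 lower (0.144%) in the bcat-1-labelled ones. DESeq2 split the strain comparison otherwise, with 3201 higher and 1676 lower genes, and the median of all genes on vector moved by 0.21 with RLE factors and by -0.33 with upper-quartile factors (log2), beside 0.01 and -0.15 for the bcat-1-labelled comparison. Leaving out 1 library at a time gave 5 to 55 higher and 47 to 373 lower genes for the bcat-1-labelled libraries. The counts fell by more than 1.5 times without library 7 (24 and 124), without any 1 bcat-1-labelled library (8 to 15 and 47 to 71) and without daf-16(mu86) vector replicate 3 (5 and 50), and in part without vector replicates 1 and 2 (34 and 32 higher).

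Known targets of DAF-16 were lower in the bcat-1-labelled libraries than in TU3311. Of 40 entries in a list of genes that DAF-16 activates, 36 could be tested. Of these 9 were lower and 0 higher, against 1.70% lower of all genes, with a list median of -1.09 beside 0.05 for all genes. In 18 of the 36 every bcat-1-labelled library lay below every TU3311 library, which held for 10.7% of all genes. Without library 7, 8 were lower and the median was -0.61. Without 1 bcat-1-labelled library the count was 3 or 4, and without daf-16(mu86) vector replicate 3 it was 2. On vector, 16 members were lower in daf-16(mu86) than in TU3311, against 6.50% lower of all genes. The list median there was -1.19, beside -0.38 for all genes. Without library 7 there were 8, against 1.43% of all genes, with a median of -0.89 beside -0.21. Within daf-16(mu86), asah-1, an acid ceramidase, was the only member called between the bcat-1-labelled and the vector libraries without the replicate block (log2 1.20, adjusted p = 0.0158, against 4.18% higher of all genes). With the block further members were called, given here and below for members called against TU3311 in either daf-16(mu86) group. Of the 9 called in the bcat-1-labelled libraries, spp-12 and cyp-35B1 were then lower than on vector and hil-1 was higher (edgeR adjusted p = 0.0144, 0.019 and 0.0097). The bcat-1-labelled and the vector comparison share the TU3311 libraries, so their values are set side by side and not counted as 2 pieces of evidence.

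The 9 called members differed by log2 values from -1.39 for lea-1 to -4.83 for spp-12. The metallothionein gene mtl-1 read 16.5, 8.66 and 35.7 CPM in the bcat-1-labelled libraries, 11.5, 19.2 and 8.63 in daf-16(mu86) on vector and 284, 180 and 179 in TU3311. Every daf-16(mu86) library of either feeding thus lay far below every TU3311 library, and the bcat-1-labelled group was 10.6-fold lower (log2 -3.40 ± 0.48, adjusted p = 0.00338, and 0.0185 without library 7). The other metallothionein on the list, mtl-2, differed little (log2 -0.36, adjusted p = 0.562). The mitochondrial superoxide dismutase gene sod-3, the classic DAF-16 reporter gene, read 0.455, 0.777 and 0.666 CPM against 7.02, 3.00 and 2.54. It was 6.60-fold lower with no overlap (log2 -2.72 ± 0.45, adjusted p = 0.00916, and 0.0171 with a log2 of -2.13 without library 7), close to its distance on vector (log2 -3.18). It was the only gene called in a list of 12 superoxide dismutases, catalases and other peroxide-handling genes, whose median was -0.18. The ferritin gene ftn-1, for iron storage, read 3.42, 3.02 and 5.61 CPM against 22.6, 22 and 9.65. It was 4.49-fold lower (log2 -2.17 ± 0.42, adjusted p = 0.018, and 0.0426 without library 7), and its vector libraries at 2.19, 3.04 and 5.30 CPM overlapped the bcat-1-labelled ones.

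The saposin-like gene spp-12 read 0.0759, 0.144 and 0.193 CPM against 8.59, 1.65 and 1.91 in TU3311. It was 28.5-fold lower (log2 -4.83 ± 0.79, adjusted p = 0.00844, and 0.00846 without library 7) on 17 counts in all in the bcat-1-labelled libraries. The size of the difference fell to a log2 of -3.64 without library 7, which held the highest value, so the fitted fold is loosely set. For icmt-1, named for an isoprenylcysteine carboxyl methyltransferase, the levels were 0.329, 0.575 and 0.215 CPM against 13, 3.43 and 4.05. It was 18.4-fold lower (log2 -4.20 ± 0.67, adjusted p = 0.00752, and 0.011 with a log2 of -3.34 without library 7). Cytochrome P450 genes of the list went the same way. Levels of cyp-35B1 were 2.15, 1.41 and 1.59 CPM against 24.8, 10.9 and 8.51, an 8.56-fold difference (log2 -3.10 ± 0.48, adjusted p = 0.00629, and 0.00697 with a log2 of -2.49 without library 7). Levels of cyp-34A9 were 16.4, 15.8 and 12.9 CPM against 85.2, 47.9 and 31, and this call did not hold without library 7 (log2 -1.86 ± 0.41, adjusted p = 0.0341, then 0.106).

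Linker histone and desiccation genes completed the called members. The linker histone gene hil-1 read 12.1, 9.61 and 12.8 CPM against 52, 29.7 and 25.6. It was 3.11-fold lower (log2 -1.63 ± 0.30, adjusted p = 0.016, and 0.0325 without library 7) and lay above its vector level of 6.73 to 9.21 CPM in each library. The late embryogenesis abundant gene lea-1, which protects dry cells, read 193, 179 and 182 CPM against 417, 577 and 457. It was 2.62-fold lower (log2 -1.39 ± 0.26, adjusted p = 0.0162, and 0.0185 without library 7). Both lea-1 and cyp-34A9 were called here but not on vector, where lea-1 differed from TU3311 by a log2 of -0.87 (adjusted p = 0.0548) and cyp-34A9 by -1.23 (adjusted p = 0.0682). For neither did the bcat-1-labelled and vector libraries of daf-16(mu86) differ by the test (adjusted p = 0.253 and 0.355). With the replicate block both were called (adjusted p = 0.023 and 0.00903). Whether the 2 strain comparisons differed therefore depended on that pairing.

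**Figure D1:**
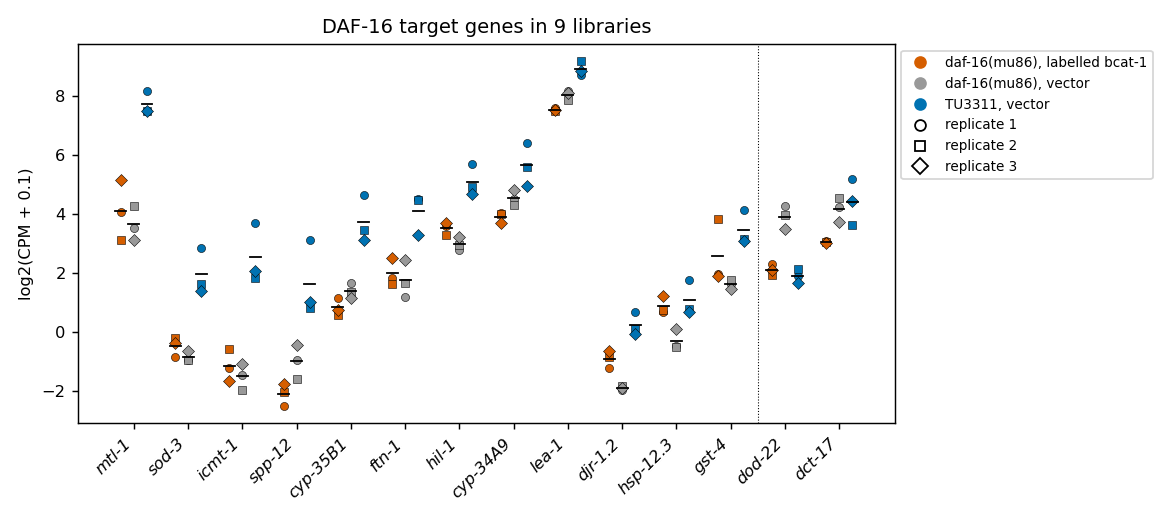
Level of 14 DAF-16 target genes in the 9 libraries, as log2(CPM + 0.1) on the vertical axis, with 1 marker per library, marker shape for the replicate and a bar for the group mean; genes right of the dotted line are from the list of genes that DAF-16 represses. For mtl-1, sod-3, icmt-1, spp-12 and cyp-35B1 both daf-16(mu86) groups lie below all 3 TU3311 libraries, and for dod-22 only the daf-16(mu86) vector libraries lie high.

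Another 9 members were lower on vector but not called in the bcat-1-labelled libraries. These were hsp-12.3, lys-7, gpd-2, nnt-1, lipl-4, ges-1, djr-1.2, gst-4 and cdr-2. Without library 7 all but nnt-1 and djr-1.2 lost the strain call as well. Among them, the small heat shock gene hsp-12.3 read 1.49, 1.58 and 2.21 CPM against 3.31, 1.63 and 1.49 in TU3311 and 0.615, 0.598 and 0.985 on vector. The bcat-1-labelled libraries overlapped TU3311 (log2 -0.28 ± 0.38, adjusted p = 0.74, and a log2 of 0.18 without library 7). They lay above all vector libraries, a step within daf-16(mu86) that was not called (log2 1.27, adjusted p = 0.0902). The DJ-1 related gene djr-1.2 read 0.329, 0.460 and 0.537 CPM, above 0.154, 0.182 and 0.170 on vector and below 1.51, 0.975 and 0.861 in TU3311. It lay between the groups without overlap to either, and neither step passed the test (adjusted p = 0.0695 against TU3311 and 0.0712 within daf-16(mu86)). The lysozyme gene lys-7 read 1220, 1340 and 1280 CPM against 8520, 2890 and 2430. Its groups did not overlap, and its log2 difference of -1.85 ± 0.53 (adjusted p = 0.0957) was -1.06 without library 7. None of the 9 differed by the test between the bcat-1-labelled and the vector libraries, with adjusted p from 0.0712 to 0.861. With the replicate block hsp-12.3, nnt-1, djr-1.2, ges-1 and gst-4 were called (adjusted p = 0.00149, 0.00485, 0.00879, 0.00911 and 0.0275) and the others were not. A missed call against TU3311 therefore does not by itself show that the level had moved.

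Genes that DAF-16 represses gave a mixed record. Of 24 entries 23 were tested, of which 1 was lower and 0 higher in the bcat-1-labelled libraries, with a median of -0.13. The lower gene was dct-17 (log2 -1.51 ± 0.35, adjusted p = 0.0402), which was not called without library 7 (0.13). On vector 1 member was called, dod-22, a gene of the innate immune response that goes down when DAF-16 is active. It read 19.3, 15.5 and 11.2 CPM in daf-16(mu86) on vector, 4.88, 3.68 and 4.17 in the bcat-1-labelled libraries and 3.67, 4.35 and 3.07 in TU3311. The vector libraries lay above all others, and the bcat-1-labelled libraries overlapped TU3311 (log2 0.20 ± 0.26, adjusted p = 0.727). The strain difference on vector (log2 2.05, adjusted p = 0.00192) and the difference within daf-16(mu86) (log2 -1.85, adjusted p = 0.00437) were both called. Within daf-16(mu86), irg-5 (log2 -2.20, adjusted p = 0.0159) and F55G11.8 (log2 -1.30, adjusted p = 0.0398) were also lower, and gcy-14, a receptor guanylate cyclase gene, was higher (log2 2.37, adjusted p = 0.0381), but none of these 3 was called against TU3311.

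Upstream of DAF-16 little differed. Among 18 genes of the insulin receptor pathway only daf-16 itself was called, and the list median was 0.07 (-0.1 without library 7). The receptor gene daf-2 gave a log2 difference of -0.29 (adjusted p = 0.676), the phosphatidylinositol kinase gene age-1 gave 0.19 (adjusted p = 0.784) and akt-1 gave 0.11 (adjusted p = 0.859). Of 32 insulin-like peptide genes tested, ins-27 and ins-22 were lower and none was higher, against 1.70% lower of all genes. The list median was -0.24 beside 0.05 for all genes, and -1.20 on vector beside -0.38. Without library 7 the list medians were -0.0 and -0.88. Levels of ins-27 were 0.582, 0.920 and 0.559 CPM against 5.24, 2.75 and 2.58, with no overlap (log2 -2.36 ± 0.39, adjusted p = 0.00844, and 0.0185 without library 7). Levels of ins-22 were 1.97, 0.805 and 1.93 CPM against 3.91, 4.53 and 6.23, and lay above the vector libraries at 0.577, 0.754 and 0.645 (log2 against TU3311 -1.63 ± 0.33, adjusted p = 0.0239, and 0.0282 without library 7). On vector 5 of the 32 were called lower than in TU3311, against 6.50% of all genes, and 5 without library 7, against 1.43%. In the bcat-1-labelled libraries ins-2, ins-3 and ins-35 were higher than on vector (log2 2.33, 1.20 and 1.93, adjusted p = 0.021, 0.022 and 0.0463). These were 3 of 32, against 4.18% higher of all genes. In the dauer TGF-beta list of 12 genes, hen-1, a secreted protein of sensory integration, was lower at 1.09, 1.29 and 0.752 CPM against 10.5, 3.18 and 5.65 (log2 -2.63 ± 0.43, adjusted p = 0.00865, and 0.0147 without library 7).

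The 1103 strain differences on vector, of which many were not called without library 7, were sorted by where the bcat-1-labelled libraries lay. A difference was said to remain where the bcat-1-labelled libraries were called in the same direction from TU3311. It was said to lie between where the sign was the same and no call was made, and at or beyond where the sign was opposite. Of the 1081 genes lower on vector, 175 remained (16.2%), 669 lay between (61.9%), 228 lay at or beyond the TU3311 level (21.1%) and another 9 were called higher than TU3311 (0.833%). Over all 1081 the median strain difference was -1.54 on vector and -0.64 in the bcat-1-labelled libraries. Of the 22 genes higher on vector, 4 remained, 15 lay between and 3 lay at or beyond. Since the comparisons share the TU3311 vector libraries, a low or high value there moves both, and the counts are a description. The strain differences were also chosen against the TU3311 libraries labelled daf-7 RNAi, which shared the fit but are not compared with the bcat-1-labelled ones. Their replicates can deviate as those on vector do, with ugt-32 at 109, 41.7 and 24.3 CPM beside 121, 42.3 and 24.6. This choice is therefore not an independent check. It gave 1067 lower genes. Of these 173 remained (16.2%), 232 lay at or beyond (21.7%) and 10 were called higher than TU3311 on vector. The counts depended on the libraries in the fit. Leaving out 1 library at a time left 16 to 229 lower genes that remained and 3 to 117 at or beyond, with 70 and 68 without library 7, 42 to 65 and 85 to 103 without 1 bcat-1-labelled library, and 16 to 62 and 3 to 5 without 1 daf-16(mu86) vector library. With RLE factors 31 lower genes lay at or beyond, and with upper-quartile factors 398.

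The line between the last classes is a difference of 0, and genes near it are not well placed. Just past TU3311 lay unc-77, an ion channel gene, with a log2 difference of 0.007, and just short of it lay the neuropeptide gene flp-15 at -0.002 and the dynein gene che-3 at -0.005. The classes were formed from the bcat-1-labelled and the vector values themselves. A gene called low on vector and placed at or beyond TU3311 has, by construction, a step within daf-16(mu86) at least as large as its strain difference, so steps between the 2 feedings are given below as descriptions of single genes and are not counted by class.

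**Figure D2:**
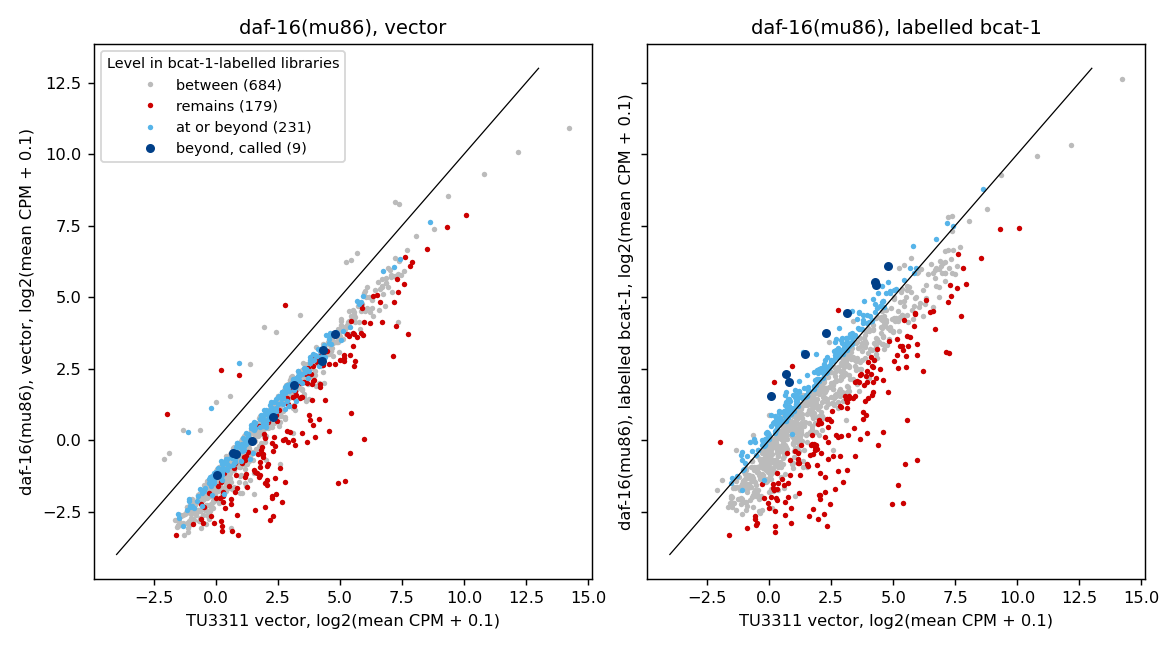
Each of the 1103 strain differences on vector is a point, with the mean level in TU3311 vector on the horizontal axis and the mean level in daf-16(mu86) on the vertical axis, both as log2(mean CPM + 0.1), on vector (left) and in the bcat-1-labelled libraries (right); colours give the classes and the line marks equal levels. On the left 1081 points lie below the line, and on the right 175 of these are called lower, while 237 lie on or above the line.

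Genes whose difference remained had large strain differences, as a call requires. Their median was -2.36 on vector and -2.38 in the bcat-1-labelled libraries for the 175 lower genes, of which 96 were called without library 7. Several were nearly silent in both daf-16(mu86) groups and well expressed in TU3311. Levels of F56D6.9 were 0.127, 0.0575 and 0.172 CPM against 79.8, 17.5 and 28.1 in TU3311 (log2 -8.38 ± 0.98, adjusted p = 0.00121, and 0.00697 with a log2 of -7.50 without library 7). The bcat-1-labelled libraries held 15 counts in all for it, and the fitted size of so low a gene depends on the prior count. Levels of F20E11.17 were 0.177, 0.0288 and 0.129 CPM against 63.1, 10.9 and 17.7 (log2 -8.02 ± 1.19, adjusted p = 0.00683, and 0.0375 with a log2 of -6.92 without library 7). In both genes library 7 held the highest value, and every TU3311 library was above every daf-16(mu86) library. The gene fipr-24 read 0.127, 0.0863 and 0.129 CPM on 14 counts in all, against 10.7, 1.68 and 3.58 in TU3311 (log2 -5.49 ± 0.93, adjusted p = 0.0107, and 0.0411 with a log2 of -4.47 without library 7).

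The glucuronosyltransferase gene ugt-32, of a detoxification family, read 0.455, 0.518 and 0.580 CPM against 121, 42.3 and 24.6. It was 120-fold lower (log2 -6.91 ± 0.79, adjusted p = 0.000876, and 0.00293 with a log2 of -6.0 without library 7), and its vector libraries at 0.808, 0.442 and 1.53 CPM overlapped the bcat-1-labelled ones. The gene W01C9.2 read 0.0506, 0.460 and 0.107 CPM against 7.67, 3.35 and 7.56 (log2 -4.94 ± 0.63, adjusted p = 0.00182, and 0.00304 without library 7). The collagen gene col-183 read 0.354, 0.173 and 0.172 CPM against 75.4, 16.3 and 18.5 (log2 -7.28 ± 1.13, adjusted p = 0.00856), and just missed the threshold without library 7 (0.0557, log2 -6.21). Secreted SCP-like genes were also among the lowest. The gene scl-20 had 3 counts in all in the bcat-1-labelled libraries and 7.06, 5.65 and 1.98 CPM in TU3311, and scl-24 had 8 counts beside 8.48, 1.10 and 3.84 CPM.

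A gene with a steadier level, aex-5, was picked out after its values were seen. It codes for a proprotein convertase that acts in the defecation cycle, and lies on chromosome I at 14850052 to 14855827 (WBcel235, minus strand), next to unc-54, the major myosin heavy chain of body wall muscle. Levels of aex-5 were 9.64, 7.77 and 7.86 CPM in the bcat-1-labelled libraries, 8.08, 7.02 and 7.71 in daf-16(mu86) on vector and 183, 99.2 and 142 in TU3311 on vector. The daf-16(mu86) groups overlapped each other and lay far from TU3311, and the difference was called in all 21 settings (16.8-fold, log2 -4.07 ± 0.30, adjusted p = 4.31e-05, and 9.2e-06 without library 7). Its neighbour unc-54 read 129, 270 and 99.6 CPM against 781, 645 and 489 (log2 -1.94 ± 0.34, adjusted p = 0.0138, and 0.0295 without library 7). Counts per gene do not separate transcripts of a transgene from those of the gene in place, and which sequences the sid-1 transgene carries is not given in the labels, so a part of the transgene in the levels of these neighbours was not tested.

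The 4 differences that remained among the genes higher on vector were haf-6, T25B9.5, oac-20 and clec-232. The half-molecule ABC transporter gene haf-6, which is known for a part in RNAi, read 23.9, 22.6 and 23.1 CPM against 6.52, 6.80 and 7.19, with 26.5, 26.2 and 25.8 on vector. It was 3.39-fold higher with little spread in any group (log2 1.76 ± 0.19, adjusted p = 0.000845, and 0.000892 without library 7). Levels of T25B9.5 were 2.94, 4.60 and 4.28 CPM against 1.15, 0.525 and 1.49 (log2 1.90 ± 0.36, adjusted p = 0.0176, and 0.0396 without library 7). The calls of oac-20, an O-acyltransferase homologue, and of the C-type lectin gene clec-232 were not kept without library 7, at adjusted p of 0.0527 and 0.0522.

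The remaining differences were spread unevenly over the genome. Chromosome V held 75 of the 179 remaining genes (41.9%) and 20.5% of all genes tested, chromosome IV held 34, and III the fewest of the nuclear chromosomes with 13. Among the 175 lower genes, 54 lay within 20 kb of another in 23 runs of neighbours. The share for gene sets of this size drawn from all genes was not computed, so the count is not read as clustering. One run on chromosome IV holds F56D6.9, F56D6.8 and dct-8, whose starts lie between 3892327 and 3895070 (WBcel235). The gene dct-8 read 0.886, 0.662 and 3.05 CPM against 82.3, 24.9 and 34.8, and F56D6.8 read 0.506, 0.173 and 0.709 against 76.1, 21.1 and 34.8, so the 3 neighbours lay low in the same libraries. Mean levels of F56D6.9, F56D6.8 and dct-8 were 0.637, 1.85 and 5.88 CPM on vector, above 0.119, 0.463 and 1.53 in the bcat-1-labelled libraries. These steps were called only with the replicate block (adjusted p = 0.00265, 0.000937 and 0.00112). The strain call of dct-8 on vector was lost without library 7 (adjusted p = 0.133). Another run on IV holds F15E6.4, F15E6.10, F15E6.3 and lgc-22, and one on V holds spp-12 and lbp-8, a lysosomal lipid-binding chaperone gene. Overlapping or near-identical neighbours may share reads, and the strand setting of the counting is not given in the sources used here.

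Among the remaining genes, C54F6.15, F15E6.3 and lys-10 were also called within daf-16(mu86) without the replicate block. The first was nearer to TU3311 than on vector (log2 1.35, adjusted p = 0.0498). The others were further away, with F15E6.3 at a mean of 5.30 CPM beside 17.1 on vector and 73.6 in TU3311 (log2 within daf-16(mu86) -1.69, adjusted p = 0.0445). The lysozyme gene lys-10 read 0.152, 0.173 and 0.129 CPM, below 0.269, 0.728 and 0.408 on vector and 1.73, 1.28 and 1.79 in TU3311 (log2 -1.65 within daf-16(mu86), adjusted p = 0.0457).

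**Figure D3:**
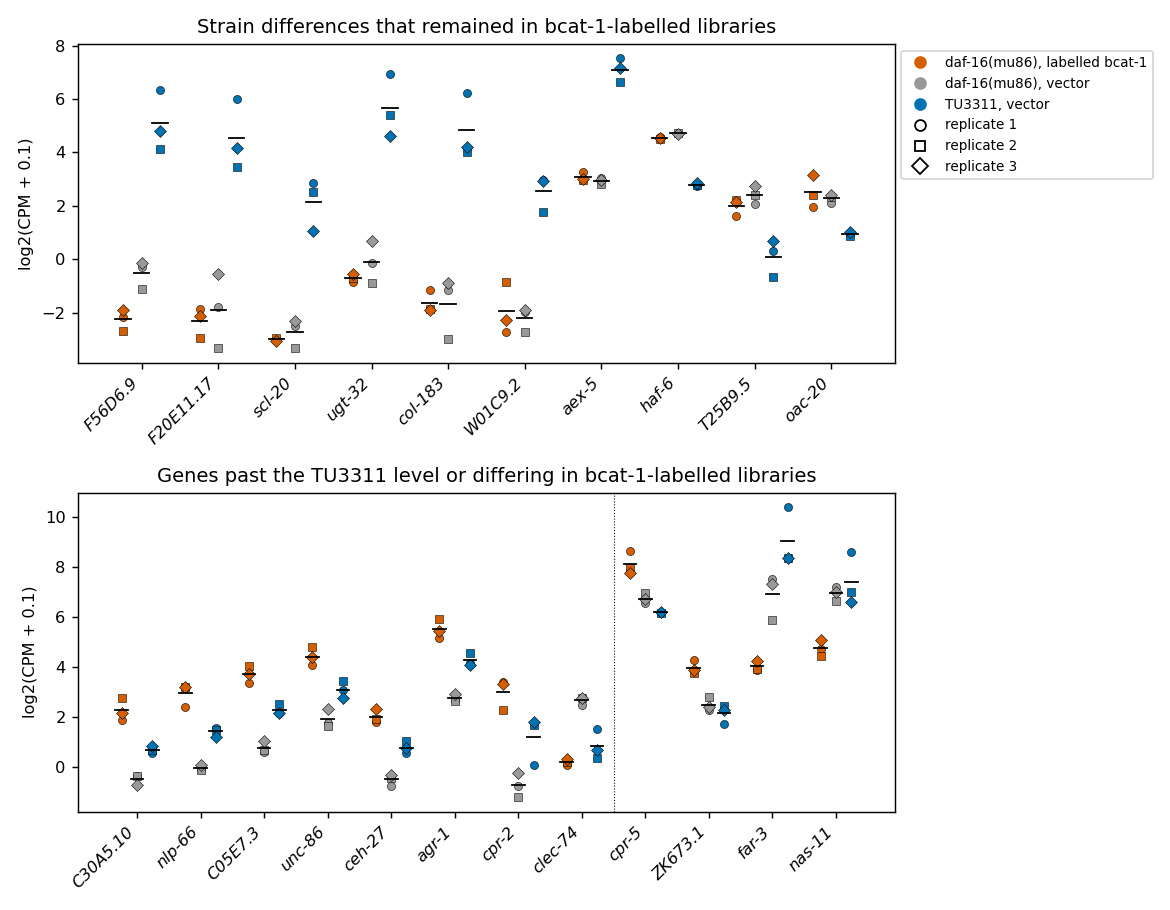
Level in the 9 libraries as log2(CPM + 0.1) on the vertical axis, with 1 marker per library and a bar for the group mean. The top panel shows genes whose strain difference remained. The bottom panel shows genes at or beyond the TU3311 level and, right of the dotted line, genes called against TU3311 in the bcat-1-labelled libraries but not on vector. Of the latter, far-3 also lies below TU3311 in every vector library. In the top panel both daf-16(mu86) groups lie on the same side of TU3311, though F56D6.9 and haf-6 lie lower in the bcat-1-labelled libraries than on vector. In the bottom panel the bcat-1-labelled libraries lie apart from the vector libraries.

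Many genes that were low in daf-16(mu86) on vector reached the TU3311 level in the bcat-1-labelled libraries. The 9 genes that were called beyond it were C30A5.10, ceh-27, nlp-66, C05E7.3, hil-7, Y64G10A.7, C27A2.8, agr-1 and unc-86. They include the POU homeobox gene unc-86 and the NK homeobox gene ceh-27, which act in the fate of neurons and other cells, the agrin gene agr-1 and the neuropeptide-like gene nlp-66. Levels of unc-86 were 16.8, 27.4 and 20.7 CPM in the bcat-1-labelled libraries, 3.31, 3.07 and 4.86 on vector and 8.41, 10.9 and 6.63 in TU3311. The 3 groups did not overlap, and the bcat-1-labelled group was 2.50-fold above TU3311 (log2 1.32 ± 0.27, adjusted p = 0.0261) and further above vector (log2 2.53, adjusted p = 0.00101). Levels of agr-1 were 35.5, 60 and 43.6 CPM against 6.27, 6.19 and 7.58 on vector and 17.7, 23.6 and 16.9 in TU3311 (log2 against TU3311 1.26 ± 0.25, adjusted p = 0.0222).

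The same order held in C05E7.3, which read 10.3, 16.3 and 12.9 CPM, 1.42, 1.53 and 1.94 on vector and 4.34, 5.60 and 4.40 in TU3311 (log2 1.46 ± 0.27, adjusted p = 0.016). It also held in C30A5.10, at 3.59, 6.62 and 4.43 CPM, 0.692, 0.676 and 0.510 on vector and 1.37, 1.5 and 1.70 in TU3311 (log2 1.68 ± 0.28, adjusted p = 0.00925). Without library 7 these were the only ones of the 9 still called against TU3311, at 0.0414 and 0.0308, and the others had adjusted p from 0.0541 to 0.132 with the same sign. Levels of nlp-66 were 5.24, 9.15 and 9.22 CPM against 0.846, 0.832 and 0.951 on vector and 2.88, 2.73 and 2.23 in TU3311, with an adjusted p of 0.0287 and 0.0546 without library 7. The linker histone gene hil-7 read 54.9, 82.8 and 66.6 CPM against 22.4, 34 and 26.1 in TU3311 (log2 1.31 ± 0.31, adjusted p = 0.0435, and 0.132 without library 7), unlike hil-1, which was lower than TU3311.

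Of the genes lower on vector, at or beyond the TU3311 level with no call against it and averaging 2 CPM or more in the 9 libraries, the largest strain difference was that of cpr-2, a cathepsin B-like protease gene. It read 10.6, 4.80 and 9.82 CPM in the bcat-1-labelled libraries, 0.5, 0.338 and 0.747 on vector and 0.967, 3.13 and 3.35 in TU3311. The step within daf-16(mu86) was called (log2 4.00, adjusted p = 0.00246), while the excess over TU3311 was not (log2 1.76 ± 0.45, adjusted p = 0.0663). The HMG-box gene hmg-6 read 11.3, 14.3 and 10.1 CPM, 2.04, 1.64 and 2.89 on vector and 3.17, 12.2 and 7.61 in TU3311, where library 7 held the lowest value and replicate 2 lay within the bcat-1-labelled range. Levels of C05C12.1 were 4, 5.75 and 4.32 CPM against 0.539, 0.676 and 0.679 on vector and 2.92, 3.18 and 2.14 in TU3311. These were above TU3311 in every library without passing the test (log2 0.77 ± 0.27, adjusted p = 0.183). Levels of Y50E8A.5 were 12.9, 19 and 12.9 CPM against 1.81, 1.82 and 2.38 on vector and 4.95, 9.30 and 6.42 in TU3311, again above TU3311 in every library with no call (log2 1.11 ± 0.32, adjusted p = 0.102). For F09C8.1 the log2 difference from TU3311 was 0.06, which turned to -0.11 with upper-quartile factors and to -0.03 with library totals, so its side of the line was not settled.

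In the other direction, 3 genes higher on vector lay below TU3311 in the bcat-1-labelled libraries, which were clec-74, F20A1.8 and ZC513.14. The C-type lectin gene clec-74 read 0.961, 1.04 and 1.16 CPM against 5.42, 6.76 and 6.76 on vector and 2.74, 1.20 and 1.51 in TU3311. The bcat-1-labelled libraries lay below all others, with the step from vector called (log2 -2.58, adjusted p = 0.00904). The distance from TU3311 was not called (log2 -0.79 ± 0.43, adjusted p = 0.416, and a log2 of -0.36 without library 7). For F20A1.8 and ZC513.14 the steps from vector were -2.90 and -2.48 (log2, adjusted p = 0.00273 and 0.0126).

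A further set of genes differed from TU3311 in the bcat-1-labelled libraries without having been called on vector. There were 44 higher and 107 lower ones. Of the higher genes 28 were also called within daf-16(mu86), and of the lower genes 9, so for most of the lower ones the distances from TU3311 on the 2 feedings were not shown to differ. Without library 7, 18 and 23 of them were called. The higher gene with the smallest adjusted p was cpr-5, a cathepsin B-like protease gene of the intestine. It read 397, 247 and 214 CPM in the bcat-1-labelled libraries, 92.6, 123 and 105 on vector and 73.7, 70.6 and 74 in TU3311. All bcat-1-labelled libraries lay above the others, 3.93-fold above TU3311 (log2 1.97 ± 0.25, adjusted p = 0.0018, and 0.00304 without library 7) and above vector by a log2 of 1.42 (adjusted p = 0.00904).

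The largest difference among the higher genes was that of Y46H3A.5, which read 6.81, 7.31 and 11.2 CPM against 1.28, 1.60 and 1.95 in TU3311 and 2.23, 4.05 and 4.89 on vector (log2 2.39 ± 0.39, adjusted p = 0.00839, and 0.0259 without library 7). The mitochondrial gene ND6, a subunit of NADH dehydrogenase, read 5.14, 3.34 and 3.37 CPM against 1.62, 0.825 and 1.35 (log2 1.64 ± 0.36, adjusted p = 0.0324, and 0.0411 without library 7). The pseudogene WBGene00012680 read 6.33, 3.57 and 3.48 CPM against 1.69, 1.30 and 1.58 (log2 1.55 ± 0.31, adjusted p = 0.0239, and 0.0478 without library 7). For these 3 genes neither the strain difference on vector nor the step within daf-16(mu86) was called. With the replicate block the step was called in Y46H3A.5 and WBGene00012680 (adjusted p = 0.00179 and 0.0176) and not in ND6 (0.0839).

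Levels of ZK673.1 were 19.1, 13.4 and 14.5 CPM against 3.22, 5.38 and 4.75 in TU3311 and 4.77, 6.91 and 5.20 on vector (log2 1.82 ± 0.26, adjusted p = 0.00437, and 0.00854 without library 7). Levels of F41C3.1 were 6.07, 3.94 and 4.25 CPM against 0.945, 1.33 and 1.47, with 1, 1.38 and 1.09 on vector (log2 1.93 ± 0.31, adjusted p = 0.00752, and 0.0254 without library 7). In both genes the vector and TU3311 libraries overlapped and the bcat-1-labelled ones stood clear. The collagen gene dpy-14, for body shape, read 302, 269 and 272 CPM against 52.4, 127 and 79.8 (log2 1.70 ± 0.39, adjusted p = 0.0402). The neurogenic transcription factor gene cnd-1 read 5.34, 8.00 and 6.27 CPM against 1.84, 2.98 and 1.37 (log2 1.66 ± 0.34, adjusted p = 0.0237). Neither dpy-14 nor cnd-1 was called without library 7, at 0.135 and 0.0745.

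The lower gene of this set with the largest difference was far-3, of the family of secreted fatty acid and retinol-binding proteins. It read 14.8, 15.2 and 18.8 CPM in the bcat-1-labelled libraries, 182, 58.8 and 159 on vector and 1320, 326 and 325 in TU3311. The 3 groups stood in that order without overlap. The bcat-1-labelled libraries were 40.4-fold below TU3311 (log2 -5.34 ± 0.81, adjusted p = 0.00752, and 0.0327 with a log2 of -4.32 without library 7) and also below vector (log2 -3.03, adjusted p = 0.0384). The astacin protease gene nas-11 read 26.1, 21.8 and 33.3 CPM against 145, 99.5 and 127 on vector and 382, 127 and 96 in TU3311 (log2 against TU3311 -2.90 ± 0.52, adjusted p = 0.0152, and 0.0305 with a log2 of -2.04 without library 7). Levels of drd-50 were 16.2, 13.1 and 23.3 CPM against 62.5, 67.8 and 52.1 on vector and 92.3, 50.8 and 60.2 in TU3311 (log2 -1.95 ± 0.36, adjusted p = 0.016, and 0.0338 without library 7). In nas-11 and drd-50 the vector and TU3311 groups overlapped and the bcat-1-labelled libraries lay below both. The antimicrobial peptide gene cnc-2 and C45B2.1 were lower too, but not without library 7 (adjusted p = 0.018 and 0.0173, then 0.0849 and 0.098).

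The remaining lists place these genes among the tissues and functions of the animal. Their counts stand beside 0.343% higher and 1.70% lower of all genes against TU3311, and their medians beside 0.05 for all genes (0.04 without library 7) and -0.38 on vector. Counts at an unadjusted p under 0.05 stand beside 2446 of all 16618 genes tested, so a few such members in a list are not read as a result. Branched-chain amino acid breakdown, the pathway of BCAT-1, had 24 tested members, of which edgeR called 0 against TU3311, with 3 at an unadjusted p under 0.05 and 0 by DESeq2 or limma voom. Their median was 0.01. The short-chain acyl-CoA dehydrogenase gene acdh-1, a propionate-responsive gene, read 6.12, 19.5 and 4.71 CPM against 25, 62.5 and 31.2 (log2 -1.97 ± 0.70, adjusted p = 0.191), and acdh-2 was higher than on vector (log2 1.84).

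Neuronal and muscle lists had few calls, and their medians moved with library 7. Of 32 synaptic and neurotransmitter genes edgeR called 0, with 2 at an unadjusted p under 0.05 and 0 by DESeq2 or limma voom. The list's median was -0.04 in the bcat-1-labelled libraries and -0.82 on vector, where all 3 libraries lay between -0.83 and -0.72. Without library 7 these medians were 0.21 and -0.52, and 1 of the 5 strain calls in the list was left. Of these genes unc-2, unc-10 and eat-4, which code for a calcium channel, an active zone protein and a glutamate transporter, were lower on vector than in TU3311 (log2 -1.09, -1.03 and -1.16) and higher in the bcat-1-labelled libraries than on vector (log2 1.44, 1.45 and 1.31). Both steps use the same vector libraries, so a low value there moves both. In the list 5 of 32 were lower on vector, beside 6.50% of all genes. Within daf-16(mu86) 3 of 32 were higher, beside 4.18%. Of 94 neuropeptide genes nlp-66 was higher and nlp-39 lower than in TU3311, near the shares of all genes, and neither was called without library 7 (adjusted p = 0.0287 and 0.031, then 0.0546 and 0.0904). The list's median was -0.11 and turned to 0.23 without library 7, beside -0.77 and -0.47 on vector. Among 28 muscle genes unc-54 and the troponin gene unc-27 were lower, with a median of -0.55 beside -0.77 on vector (-0.25 and -0.45 without library 7), and unc-27 was not called without library 7 (adjusted p = 0.031, then 0.0818).

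Germline lists showed no calls and moved with library 7. Of 30 oocyte and eggshell genes edgeR called 0 (0 at an unadjusted p under 0.05, 0 by DESeq2 and limma voom), with a median of 0.22 that was -0.09 without library 7. Of 29 germline and P granule genes it called 0 (1 at an unadjusted p under 0.05, 0 by DESeq2 and limma voom), with a median of 0.20 that was -0.05 without it. The medians on vector were 0.88 and 0.85. Of 41 sperm genes it called 0 (2 at an unadjusted p under 0.05, 0 by DESeq2 and limma voom). The sperm median of -1.19 was -0.25 without library 7, and the bcat-1-labelled libraries were far apart, at -2.76, -0.04 and -1.37 from the TU3311 mean. Of 23 embryonic genes ceh-27 and cnd-1 were higher, and neither was called without library 7 (adjusted p = 0.0861 and 0.0745). No vitellogenin of 6 was called (0 at an unadjusted p under 0.05, 0 by DESeq2 and limma voom).

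Cuticle collagens, the building blocks of the worm's outer layer, were read differently by different libraries. Of 152 tested, dpy-14 was higher and 10 were lower, and without library 7 none was called (0 higher and 0 lower). The list median of 0.35 rested on replicate 2 of the bcat-1-labelled group, whose median collagen lay 1.31 above the TU3311 mean while replicates 1 and 3 lay at -1.44 and -0.93. Without replicate 2 the list median was -1.23, and limma voom gave -0.27, so the collagens as a list had no settled direction. Among the lower ones were col-183 and col-181, which read 118, 139 and 86.5 CPM against 917, 417 and 359 (log2 -2.30 ± 0.45, adjusted p = 0.0209, and 0.0625 without library 7).

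Among immune and detoxification lists, the calls were of lower genes except for a pair of lectins. Of 37 lysozyme and saposin-like genes lys-10, spp-9, spp-12, spp-15 and spp-20 were lower, against 1.70% of all genes, with a median of -0.57 beside 0.05. Without library 7 there were 4 calls, spp-15 being lost (adjusted p = 0.0772), and the median was -0.32. The gene spp-20 read 0.582, 0.662 and 0.494 CPM against 12.4, 3.63 and 16.7 (log2 -4.23 ± 0.56, adjusted p = 0.00232, and 0.00624 without library 7). Of 18 epidermal antimicrobial peptides cnc-2 and cnc-7 were lower, neither without library 7, with a median of -1.66 that was -1.05 without library 7. This list lay lower in the bcat-1-labelled libraries than on vector, where its median was -0.43 (0.24 without library 7). Without the replicate block only cnc-2 and no other member was called lower between the 2 feedings, and with it cnc-7 was called too (adjusted p = 0.00304). Of 15 genes that depend on the PMK-1 immune kinase clec-85 and K08D8.5 were lower, and neither was called without library 7. Of 138 C-type lectins clec-10 and clec-232 were higher and clec-75, clec-76, clec-85 and clec-146 lower, a lower count near the 1.70% of all genes. All 4 lower calls were lost without library 7 (adjusted p from 0.0924 to 0.173), as was clec-232, while clec-10, at 8.02, 8.20 and 3.93 CPM against 2.41, 2.53 and 1.35, was still called (log2 1.68 ± 0.33, adjusted p = 0.0209, then 0.0385). C-type lectin genes are many and some are near-identical, so their single values are uncertain.

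Of 62 glucuronosyltransferases, which attach sugar to toxins, 6 were lower and 0 higher, against 1.70% lower of all genes, with a median of -0.44 beside 0.05. On vector 17 had been lower, against 6.50% of all genes, with a median of -0.89 beside -0.38. Without library 7 these counts were 4 and 5 and the medians -0.26 and -0.57. The fall from 17 to 6 was thus not seen without library 7, and it came with a fall in calls over all genes. Lower calls over all genes on vector also fell without 1 daf-16(mu86) vector library, to 52, 88 and 27. Counts of this list without those libraries are not given. Besides ugt-32 these included ugt-66, at 0.810, 1.21 and 0.752 CPM against 20.4, 11.4 and 5.91 (log2 -3.77 ± 0.53, adjusted p = 0.00335, and 0.00305 without library 7), and ugt-14, at 0.455, 0.777 and 0.516 CPM against 13.6, 4.08 and 3.98 (log2 -3.63 ± 0.63, adjusted p = 0.012, and 0.0274 with a log2 of -2.79 without library 7). Of the 67 cytochrome P450 genes cyp-29A4, cyp-32A1, cyp-34A8, cyp-34A9 and cyp-35B1 were lower, with a median of -0.53 that was -0.30 without library 7, where cyp-35B1 alone was called. Of 44 glutathione S-transferases edgeR called 0 (8 at an unadjusted p under 0.05, with 3 lower by DESeq2 and 0 by limma voom). Of 212 nuclear hormone receptor genes it also called 0 (19 at an unadjusted p under 0.05, with 3 higher and 1 lower by DESeq2 and 0 by limma voom), while 12 were higher than on vector, near the 4.18% of all genes.

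Cathepsin B-like proteases went the other way. Of 8 tested, cpr-5, cpr-1 and cpr-8 were higher than in TU3311 and none was lower, against 0.343% higher of all genes, with a median of 0.96 beside 0.05. Without library 7, cpr-5 and cpr-8 were called and the median was 0.86, and on vector the median was -0.03. Levels of cpr-1 were 1070, 889 and 1140 CPM against 336, 552 and 422 (log2 1.24 ± 0.27, adjusted p = 0.0314, and 0.107 without library 7). Levels of cpr-8 were 20.5, 14.5 and 10.9 CPM against 6.86, 6.20 and 3.44 (log2 1.47 ± 0.32, adjusted p = 0.0314, and 0.0375 without library 7). In cpr-1, cpr-5 and cpr-8 every bcat-1-labelled library lay above every TU3311 and vector library. Among 22 intestinal genes these included cpr-1 and cpr-5, and pept-1, a peptide transporter gene, was higher as well (log2 1.03, adjusted p = 0.0419), while fat-7 and ftn-1 were lower. Without library 7 only cpr-5 and ftn-1 of these 5 were called, with pept-1 at an adjusted p of 0.0956.

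Fat and sugar metabolism showed few calls. Of 19 genes of lysosomal lipases and fat mobilisation lipl-1 was higher (log2 1.63, adjusted p = 0.0479) and lipl-2, lbp-8 and lbp-2 were lower. Only lbp-8 was called without library 7, where the adjusted p was 0.121 for lipl-1, 0.127 for lipl-2 and 0.0584 for lbp-2. The chaperone gene lbp-8 read 0.835, 0.489 and 0.516 CPM against 3.10, 3.60 and 3.33 (log2 -2.44 ± 0.45, adjusted p = 0.016, and 0.0226 without library 7). The stearoyl-CoA desaturase gene fat-7 read 7.95, 9.84 and 4.19 CPM against 41.7, 23.9 and 17.6 (log2 -1.92 ± 0.43, adjusted p = 0.0374, and 0.129 without library 7). In glycolysis and gluconeogenesis pck-1, the phosphoenolpyruvate carboxykinase gene, was lower but not without library 7 (log2 -1.78 ± 0.41, adjusted p = 0.04, then 0.129 with a log2 of -1.14). In the TCA cycle idhg-2 was lower (log2 -1.85 ± 0.34, adjusted p = 0.0159, and 0.0375 without library 7). No gene was called by edgeR among 33 proteasome subunits (0 at an unadjusted p under 0.05, 0 by DESeq2 and limma voom).

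Ribosomal protein genes lay above TU3311 together without any single call in edgeR. Of 78 tested, edgeR called 0, while 75 had an unadjusted p under 0.05, beside 2446 of all 16618 genes. Groups did not overlap in 75, where 8.69% of all genes did not overlap in this direction. DESeq2 called 24 higher and limma voom 0, and without libraries 7 and 8 edgeR called 68 higher. The list median was 0.66 and 0.52 without library 7, beside 0.59 on vector. The gene rps-12 read 1520, 1150 and 1510 CPM against 548, 760 and 945 (log2 0.89 ± 0.23, adjusted p = 0.0639), and its vector libraries read 1150, 1240 and 1200.

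**Figure D4:**
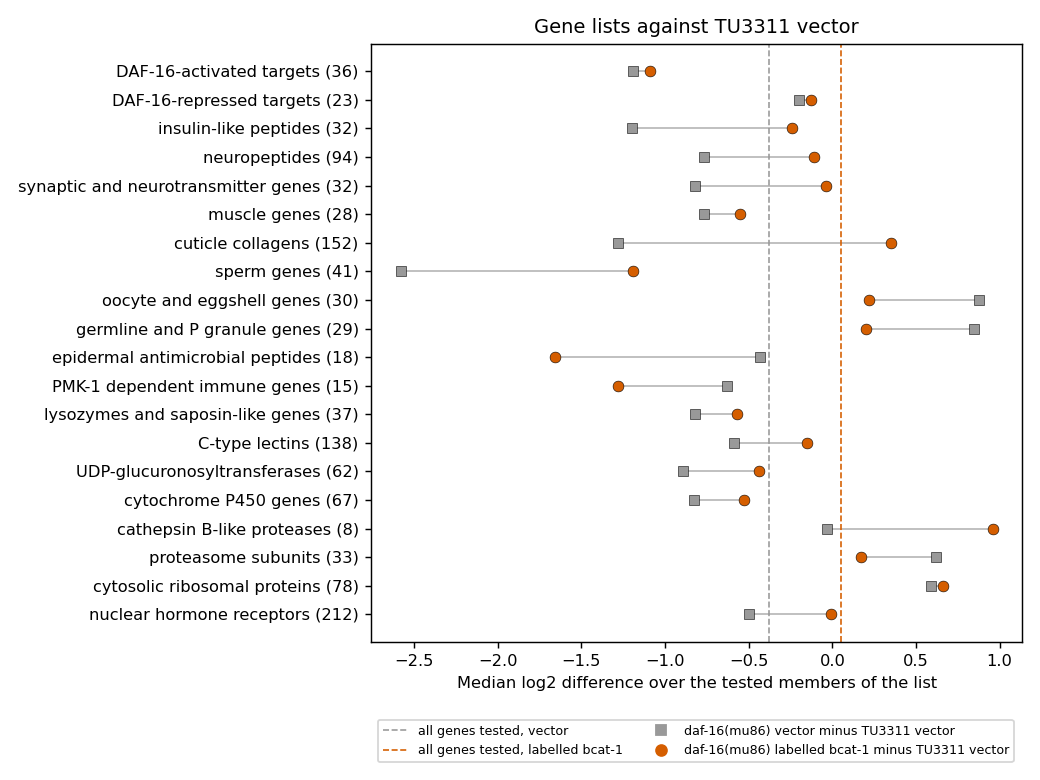
Median log2 difference over the tested members of 20 gene lists, with a square for daf-16(mu86) vector and a circle for the bcat-1-labelled libraries, each against TU3311 vector; dashed lines mark the medians of all genes at -0.38 and 0.05. The DAF-16-activated list lies at -1.19 on vector and -1.09 in the bcat-1-labelled libraries, whereas the synaptic list lies at -0.82 on vector and at -0.04 in the bcat-1-labelled libraries.

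Other lists gave 1 call each or 0. The only gene called was sid-1 among 31 genes of the RNAi machinery (list median 0.16, and -0.01 without library 7). It was far-3 among 8 far genes (-1.11, and -0.63 without library 7) and haf-6 among 7 haf transporters (0.10, and 0.24 without library 7). Among 22 genes of fatty acid desaturation and elongation it was fat-7 (0.06). The edgeR count was 0 among 18 cytosolic heat shock proteins (4 at an unadjusted p under 0.05, 2 lower by DESeq2, 0 by limma voom) and among 15 genes of the mitochondrial unfolded protein response (3 at an unadjusted p under 0.05, 1 higher and 1 lower by DESeq2, 0 by limma voom). It was also 0 among 43 autophagy, lysosome and V-ATPase genes (3 at an unadjusted p under 0.05, 1 lower by DESeq2, 0 by limma voom) and 13 genes of the TOR pathway (1 at an unadjusted p under 0.05, 0 by DESeq2 and limma voom). Of 11 osmotic response genes it was 0 as well (5 at an unadjusted p under 0.05, 4 lower by DESeq2, 0 by limma voom), with a median of -0.75 that was -0.33 without library 7.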

How the data were processed

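RNA of whole worms was sequenced in 12 libraries, 3 per group. The authors deposited whole-number counts of reads per gene. The tools in the submitters' processing notes are featureCounts 1.4.6-p4, STAR 2.4.1d and bcl2fastq 1.8.4, and the build is WBcel235. Annotation release, strand setting and treatment of reads with several matches are not given in the sources used here. Values of overlapping genes and near-identical copies are therefore uncertain. Deposited RPKM values were not used.

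Counts were fitted in R 4.3.3 with edgeR 4.0.16, whose quasi-likelihood test was used two-sided. All 4 groups shared 1 fit, with TMM factors, the tool's own filter on low counts and 8 residual degrees of freedom. It covered 16618 of 46748 gene identifiers. A gene was called at an adjusted p under 0.05 (Benjamini-Hochberg, over all genes tested), and every adjusted p is edgeR's unless another tool is named. The SE of a log2 difference is its size over the square root of F. CPM are TMM-scaled, and no test was run on a list. DESeq2 1.42.0, limma voom (limma 3.58.1), other factors and filters, and fewer libraries were alternatives. Names and coordinates come from a WBcel235 annotation of release 115. On simulated counts for 16618 genes the test recovered 67% of 100 genes changed 2-fold and 100% of those changed 4-fold, with 6 false calls. The simulation gave all genes the same dispersion, had no outlying library and changed only genes above 2 CPM. Its figures therefore do not give the power or the false calls of the comparison made here.

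The members, 40 gene lists and rules were chosen with earlier results of these data known. Genes named were the 4 of the labels, the 10 higher and 10 lower genes with the largest difference, called with and without library 7, with a mean of at least 2 CPM and no overlap, and up to 5 per direction and class of strain difference, and called or, in part, leading list members. Where a list count is small all its called genes are named, and those outside the rule were chosen after their values were seen. Neighbouring library numbers within daf-16(mu86) had deviations that correlated at 0.398, 0.284 and 0.158, so any pairing rests on the values, since no label states one.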

Additional observations from a re-analysis of the deposited data

How the results depend on the processing

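Across the genes named and the alternatives run, 498 values lost a call against TU3311, 68 gained one and no called value changed sign. The difference of F09C8.1, which was not called, turned negative with library totals and with upper-quartile factors. Counts of calls moved far more. The order below starts with higher and lower against TU3311 in the bcat-1-labelled libraries (57 and 282) and higher and lower on vector (22 and 1081). Next come remaining and at or beyond among the lower genes (175 and 237) and the same among the higher genes (4 and 3). Last come DAF-16-activated genes lower (9). Runs without names give every value in this order, and named values are those that moved by over 1.5 times. DESeq2 gave 181, 681, 3201, 1676, 408, 320, 54, 150 and 14. Upper-quartile factors gave 10, 50, 81, 1816, 48, 398, 1, 3 and 3. Library totals gave 15, 86, 25, 2858, 81, 630, 2, 0 and 6. RLE factors gave 14 and 242 on vector and 31 at or beyond among the lower genes. A minimum of 1 CPM in 3 libraries gave 18, 63, 147, 685, 60, 191, 7, 5 and 5. No filter gave 108 higher on vector and 7 remaining among the higher genes. limma voom gave 187 lower, 12 and 486 on vector, and 115 remaining and 110 at or beyond among the lower genes. The 6 libraries alone gave 6 higher and 73 lower genes and 5 DAF-16 targets. The 9 libraries alone gave 2564 and 3568 on vector, 616 at or beyond among the lower genes, and 34 and 246 among the higher genes. The same less library 7, an alternative chosen after seeing the data, gave 220, 409, 1936, 2354, 279, 856, 88, 411 and 10. Without libraries 7 and 8 the values were 271, 470, 2605, 2589, 318, 942, 117, 595 and 13. Choosing strain differences with the daf-7-labelled libraries left 7 higher genes that remained. The causes of these shifts were not tested. Leaving out 1 library at a time gave 5 to 55 and 47 to 373 against TU3311, 3 to 41 and 27 to 1230 on vector, 16 to 229 remaining, 3 to 117 at or beyond, 1 to 7 and 0 to 3 among the higher genes, and 2 to 10 DAF-16 targets.

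No paired analysis was possible because the bcat-1-labelled and TU3311 libraries share no pair of neighbouring numbers. Within daf-16(mu86), the replicate block raised the calls between the 2 feedings from 694 higher and 24 lower to 4275 higher and 3081 lower, so calls missed there without the block depend on that choice. Depth limits the genes near silence in daf-16(mu86), where few counts set the size of a difference. The promoters of DAF-16 targets were not analysed here.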
